A study of Mus musculus with 20 samples.

Results

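The blood-brain barrier is formed by endothelial cells of brain capillaries, which are sealed to each other by tight and adherens junctions and which carry a distinctive set of transporters. Junction proteins close the path between cells, uptake carriers bring glucose and lipids into the brain, and efflux pumps return drugs and other foreign compounds to the blood. Pericytes and astrocyte endfeet surround the vessel and help to keep the barrier state. The genes examined were Cldn5, Ocln, Tjp1, Cdh5, Pecam1, Slc2a1, Mfsd2a, Slco1a4, Abcb1a and Abcg2. These are 10 of the 30210 gene names on the array, and every non-control probe that carried one of them was taken, which gave 11 of 39429 probes. Ocln had 2 probes and each other gene had 1.

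Social stress was applied to adult male Swiss Webster mice, which lived alone and were placed as intruders among group-housed males, while their control siblings, kept in an adjacent room, were left undisturbed. Prefrontal cortex was collected after acute stress, after 8 days of stress, after 13 days of stress, and after 13 days of stress followed by 5 days of rest, which is called recovery here, each with its own control group. Acute stress was a single short encounter, and outside the recovery groups the tissue was taken the day after the last encounter. The tissue was a slice of the frontal pole, so it holds every cell type of the cortex together with vessels and the blood in them. RNA of 3 mice made a pool, the mice with the most RNA were chosen, and a stress pool and a control pool were hybridised together on a dual-colour array. There were 3 pairs of pools at each of the 4 time points. Pool 1 had 1 array, with stress in the Cy5 channel, and pools 2 and 3 each had an original and a dye-swapped array, so that 20 arrays were used. In such bulk tissue fewer endothelial cells and less RNA per cell cannot be told apart.

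The 10 main probes, the brighter one for Ocln, were well above background on 20 of 20 arrays. The second Ocln probe passed this mark on 16 of 20 arrays. The transcripts named for all 11 probes matched RefSeq genes of the same symbols. Probe positions were those of the array files, in mouse build mm9, and whether a probe lies in a coding exon or in a UTR was not annotated here. The Cldn5 probe lay at chr16:18778046-18778105, that of Mfsd2a at chr4:122624182-122624241, and that of Slc2a1 at chr4:118809864-118809923. The Ocln probes lay at chr13:101268529-101268588 and chr13:101267384-101267443. The other probes lay at chr7:72441126-72441185 for Tjp1, chr8:106668159-106668218 for Cdh5, chr11:106540864-106540923 for Pecam1, chr6:141754675-141754734 for Slco1a4, chr5:8748075-8748134 for Abcb1a and chr6:58642312-58642371 for Abcg2.

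The first 30 bases of the 60-base probes are given for the genes whose values are described most closely, and for both Ocln probes because they read different stretches of the same transcript. The bases are those of the probe as the array files list them, and no part is marked.
Cldn5: tcctactgagatcctgggggcactagatgc
Mfsd2a: ctgactgggcctagctcggaacactaatgt
Slc2a1: acccacttgtaaatacaccaacaaactcct
Ocln, main probe: aaatggcttttgataattgactgggctgaa
Ocln, second probe: cccaatttggtctgttttagctgaaaatgt

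None of the 11 probes was called at any time point. A call needed an adjusted p under 0.05 in limma, with Benjamini-Hochberg adjustment over 39429 probes, and a log2 ratio of stress over control over 0.5 in size. Calls were rare over the whole array: 0.00254% of all probes were called after acute stress, 0% at 8 days, 0.0228% at 13 days and 0% at recovery. The mean log2 ratios of the 44 combinations of probe and time point had a size of 0.22 or less, and the largest ratio of a single pool was 0.45, in the second Ocln probe. The 95% intervals of all 44 means lay within 0.5 on either side of 0. They reached down to -0.33 and up to 0.35, so that a stress level below 0.793 or above 1.28 times the control level lay outside every interval. Such narrow intervals were common: 99.1% of all probes had one after acute stress, 99.3% at 8 days, 99% at 13 days and 99.1% at recovery.

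**Figure D1:**
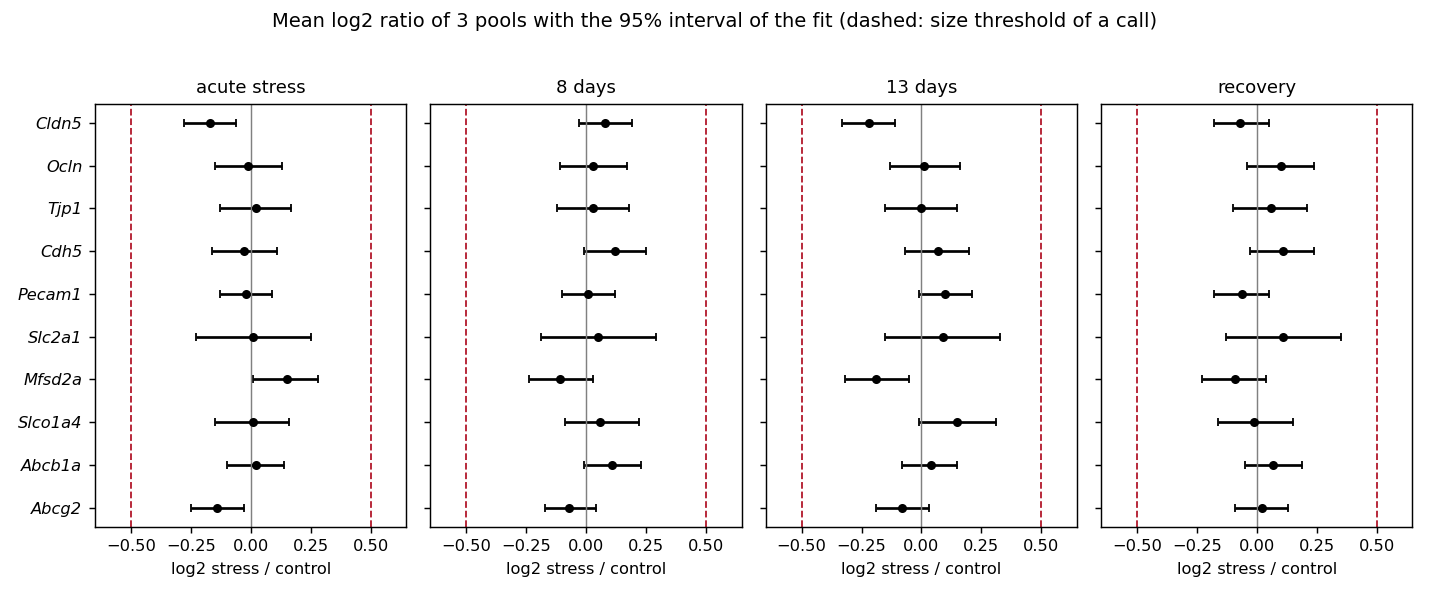
Mean log2 stress/control ratio of the main probe of each barrier gene (points, 3 pools) with the 95% interval of the limma fit (bars), in 1 panel per time point. All intervals lie between -0.33 and 0.35, inside the dashed lines at a size of 0.5, and those of Cldn5 and Mfsd2a at 13 days lie below 0.

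At an unadjusted p under 0.05 there were 3 of 11 probes after acute stress, 0 at 8 days, 2 at 13 days and 0 at recovery. Over all probes these shares were 4.94%, 2.39%, 7.18% and 3.56%. The probes were Cldn5 and Abcg2, below their controls, and Mfsd2a, above its controls, after acute stress, and Cldn5 and Mfsd2a, below their controls, at 13 days. All 3 pools had the same sign for 5 of 11 probes after acute stress, 2 at 8 days, 6 at 13 days and 2 at recovery. Over the array the same held for 28.4%, 18.6%, 26.5% and 21% of probes.

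**Figure D2:**
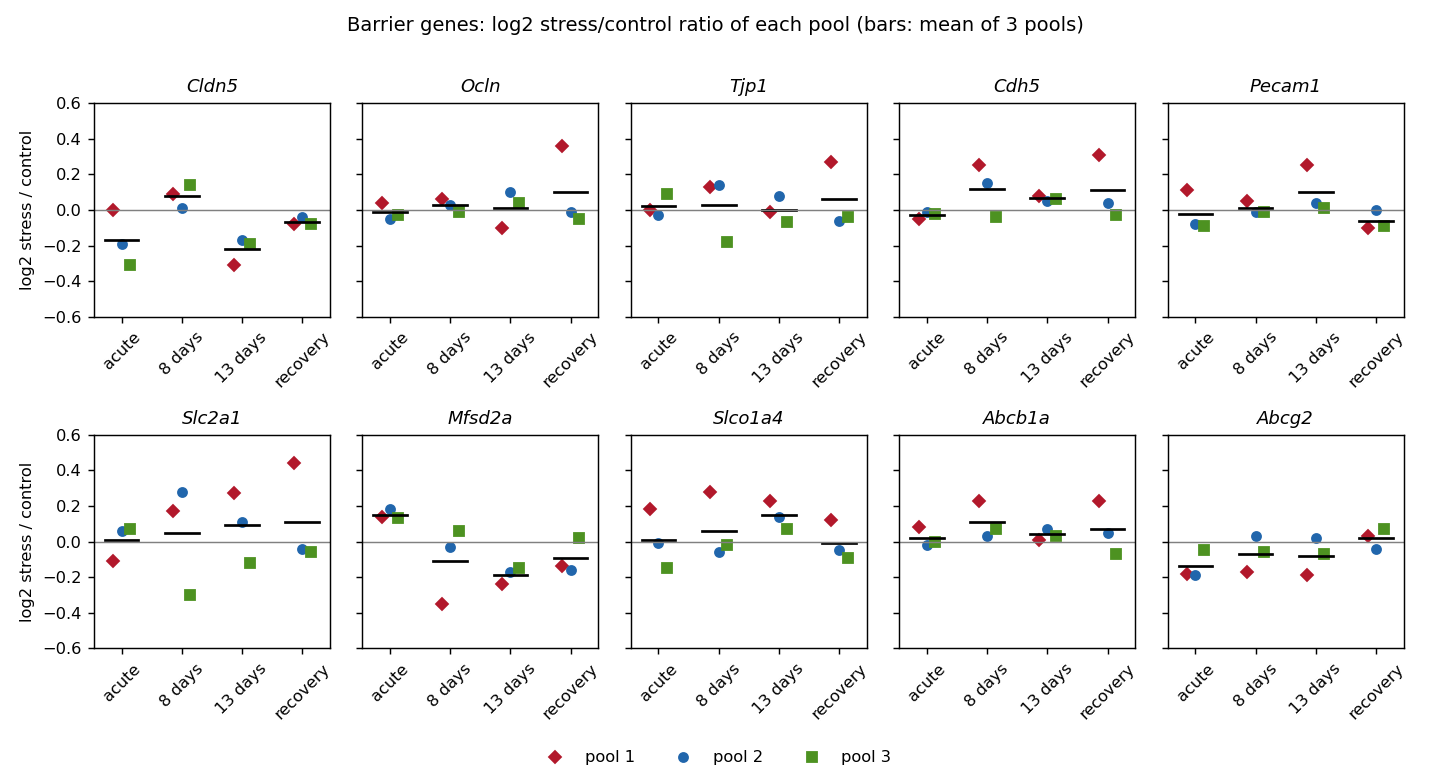
Log2 stress/control ratio of the main probe of each barrier gene in each of 3 pools (diamonds, circles and squares) at the 4 time points, with the mean of the pools as a bar. Cldn5 and Mfsd2a lie below 0 in all 3 pools at 13 days, and pool 1 stands above the others for Slc2a1, Ocln, Cdh5, Tjp1 and Abcb1a at recovery.

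Cldn5 encodes claudin-5, the main claudin of the endothelial tight junction in brain. Its log2 ratios at 13 days were -0.31, -0.17 and -0.19 in pools 1 to 3. Each stress pool was thus below its control, and the mean of -0.22 ± 0.0764 (SD, n = 3) is a level 0.858 times that of the controls, with an interval of 0.793 to 0.928. The limma p was 0.00106 and the adjusted p was 0.323, so the difference did not pass. After acute stress the ratios were 0.00, -0.19 and -0.31, with pool 1 level with its control and a mean of -0.17 (adjusted p = 0.799 in limma). The acute mean was -0.01 when arrays were centred on their median in place of loess, -0.10 without pool 3 and -0.29 on the original arrays alone. At 8 days they were 0.09, 0.01 and 0.14, all above 0, with a mean of 0.08 (adjusted p = 1). At recovery they were -0.08, -0.04 and -0.08, with a mean of -0.07 (adjusted p = 0.999). The 13-day ratio was 0.30 below that at 8 days (difference -0.30, SE 0.0742, interval -0.46 to -0.14), with a limma p of 0.00139 and an adjusted p of 1. The 8-day ratio was 0.25 above the acute ratio (SE 0.0742, limma adjusted p = 1), and it had the other sign when arrays were centred on their median in place of loess, at -0.07.

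The channels behind these ratios varied more between pools than between stress and control. Normalised Cldn5 intensities at 13 days were 2201, 2108 and 3227 in the stress pools, against 2724, 2368 and 3671 in their control pools. The ranges overlapped because both channels of pool 3 were bright, while each stress pool was dimmer than its own control. After acute stress they were 2454, 1955 and 2603 in stress pools, against 2459, 2235 and 3227 in control pools.

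Cldn5 also differed between the dye orientations. In all 8 pools that had both orientations, the original array gave a lower ratio than the swapped one, with a mean half-difference of -0.16. Over all probes the size of this half-difference had a median of 0.0352 and a 95th percentile of 0.127. At 13 days pool 2 had -0.20 on the original array and -0.13 on the swap, and pool 3 had -0.40 and 0.02. After acute stress the originals of pools 2 and 3 had -0.30 and -0.57, against -0.09 and -0.05 on the swaps. With the dye as a term of the fit, added after seeing the data, the means were -0.17 after acute stress and -0.18 at 13 days, with limma adjusted p of 0.48 and 0.319. Without pool 1, whose only array has the original orientation, the 13-day mean was -0.18 and the acute mean -0.25.

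**Figure D3:**
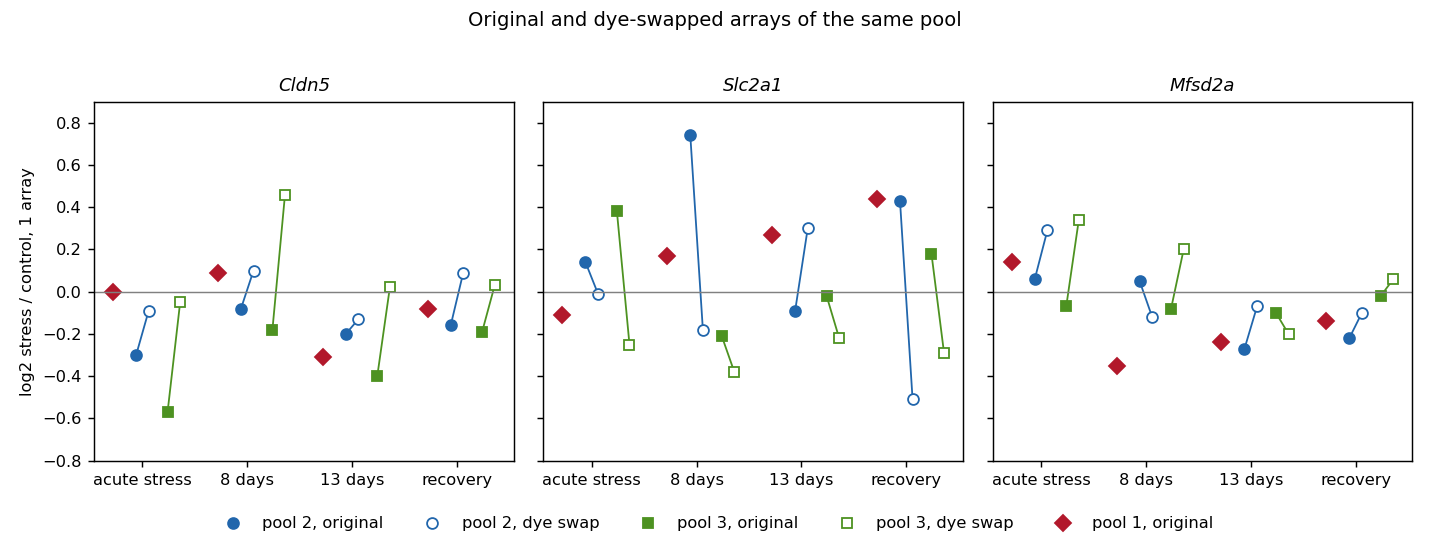
Log2 stress/control ratio on each array for Cldn5, Slc2a1 and Mfsd2a at the 4 time points, with original arrays as filled and dye-swapped arrays as open symbols, joined within a pool. The Cldn5 original lies below its swap in all 8 pools with both orientations, and the Slc2a1 original lies above its swap in 7 of 8.

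Ocln encodes occludin, a membrane protein of the tight junction. Its main probe had mean ratios of -0.01, 0.03, 0.01 and 0.10 in order of time. A single value stood apart, 0.36 in pool 1 at recovery, against -0.01 and -0.05 in pools 2 and 3. The second, dimmer Ocln probe had means of 0.11, 0.13, 0.10 and 0.07, all above 0, with 0.45 in pool 1 at 8 days and -0.03 and -0.02 in the others. The intervals of both probes included 0 at every time point. The main probe at 13 days in pool 2 had -0.28 on the original array and 0.49 on the swap, so its pool value of 0.10 is the mean of opposite readings.

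Tjp1 encodes ZO-1, the scaffold that ties tight junction proteins to actin, and is made by many cell types besides endothelium. Its means were 0.02, 0.03, 0.00 and 0.06 in order of time. Pool 1 at recovery had 0.27, against -0.06 and -0.04 in pools 2 and 3. At 8 days pool 3 had -0.18, against 0.13 and 0.14 in pools 1 and 2, so the pools disagreed in sign.

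Cdh5 encodes VE-cadherin, the cadherin of endothelial adherens junctions. At 13 days its ratios were 0.08, 0.05 and 0.06, close together and all above 0, with a mean of 0.07 ± 0.0157 (SD, n = 3) and a limma adjusted p of 0.909. At 8 days they were 0.25, 0.15 and -0.04, with a mean of 0.12 (adjusted p = 1), and at recovery 0.31, 0.04 and -0.03. Acute values were -0.05, -0.01 and -0.02.

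Pecam1 encodes an adhesion molecule of the endothelial lateral border that platelets and leukocytes also carry. Its ratios at 13 days were 0.25, 0.04 and 0.01, so that the mean of 0.10 rested on pool 1 and was 0.02 without it (limma adjusted p = 0.738 with all pools). At recovery they were -0.10, 0.00 and -0.09. The recovery ratio was 0.16 below that at 13 days (difference -0.16, SE 0.0731, limma adjusted p = 1). Means were -0.02 after acute stress and 0.01 at 8 days.

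Among the uptake carriers, Mfsd2a had the largest difference between time points of the 10 main probes, which did not pass the test. It encodes a lipid carrier that takes up docosahexaenoic acid as lysophosphatidylcholine and holds down transcytosis in brain endothelium. After acute stress the ratios were 0.14, 0.18 and 0.13, and at 13 days they were -0.24, -0.17 and -0.15. All stress pools were thus above their controls after acute stress and below them at 13 days. The means were 0.15 ± 0.0234 and -0.19 ± 0.0474 (SD, n = 3 each), with limma adjusted p of 0.976 and 0.535. The 13-day ratio was 0.34 below the acute ratio (difference -0.34, SE 0.0886, interval -0.53 to -0.14), with a limma p of 0.00226 and an adjusted p of 0.571. When slides were blocked, this difference had an adjusted p of 0.164 in limma, and with a dye term one of 0.169, so it passed in neither.

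At 8 days Mfsd2a had -0.35, -0.03 and 0.06, and at recovery -0.14, -0.16 and 0.02. Neither time point had a single direction, and the means were -0.11 and -0.09 (limma adjusted p = 1 and 0.999). The 8-day mean was 0.01 without pool 1. Normalised intensities after acute stress were 1179, 1172 and 1323 in the stress pools, against 1074, 1037 and 1205 in control pools. At 13 days they were 848, 984 and 1064 in the stress pools, against 1003, 1108 and 1181 in control pools. Control levels at both time points lay in a like range, and the stress level was the higher one in the acute pairs and the lower one in the 13-day pairs. On single arrays 1 of the 5 acute values was below 0 (-0.07, the original array of pool 3) and 0 of the 5 values at 13 days was above 0.

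**Figure D4:**
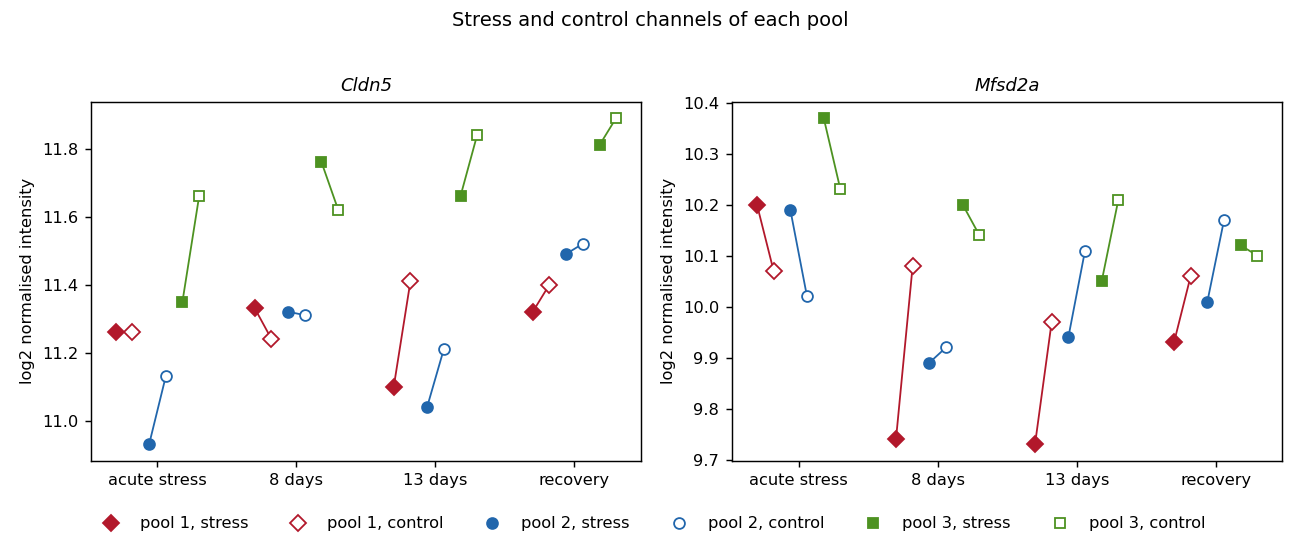
Log2 normalised intensity of Cldn5 and Mfsd2a in the stress channel (filled) and the control channel (open) of each pool, joined within a pool, at the 4 time points. For Mfsd2a the stress pools lie above their controls after acute stress and below them at 13 days, and for Cldn5 the pools differ more from each other than stress from control.

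Slc2a1 encodes GLUT1, the glucose carrier of brain endothelium. It had the largest spread of the main probes, with an SD of 0.205 over the 12 pools. Its ratios were -0.11, 0.06 and 0.07 after acute stress, 0.17, 0.28 and -0.30 at 8 days, 0.27, 0.11 and -0.12 at 13 days, and 0.44, -0.04 and -0.06 at recovery. No time point had a single sign, and the means of 0.01, 0.05, 0.09 and 0.11 had limma adjusted p of 0.947 or more. The original array gave the higher ratio in 7 of 8 pools, with a mean half-difference of 0.19. In pool 2 the original and the swap had 0.74 and -0.18 at 8 days, and 0.43 and -0.51 at recovery. With a dye term the means at the 4 time points were -0.01, -0.01, 0.01 and 0.01.

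Slco1a4 encodes an organic anion transporter of the capillary wall. At 13 days its ratios were 0.23, 0.14 and 0.07, all above 0, with a mean of 0.15 ± 0.08 (SD, n = 3) and a limma adjusted p of 0.713. The p before adjustment was 0.0579, and without pool 1 the mean was 0.11. At the other time points the pools disagreed in sign, and the means were 0.01 after acute stress, 0.06 at 8 days and -0.01 at recovery. Pool 1 was the highest of the 3 pools at each of the 4 time points, at 0.18, 0.28, 0.23 and 0.12.

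Abcb1a and Abcg2 encode the efflux pumps P-glycoprotein and breast cancer resistance protein. Abcg2 had -0.18, -0.19 and -0.05 after acute stress, below the controls in all pools, with a mean of -0.14 ± 0.0758 (SD, n = 3), a p of 0.0141 and an adjusted p of 0.931 in limma. This mean was 0.00 when arrays were centred on their median in place of loess. Its later means were -0.07, -0.08 and 0.02. Abcb1a had 0.23, 0.03 and 0.07 at 8 days, with a mean of 0.11 (limma adjusted p = 1), and 0.05 without pool 1. Its ratios at 13 days were 0.01, 0.07 and 0.03, with a mean of 0.04, and its acute and recovery means were 0.02 and 0.07.

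The other differences between time points gave 0 calls among the 11 probes as well. The shares of all probes called were 0.00254% for 13 days against acute stress and 0% for each of the other 5 differences. At an unadjusted p under 0.05 there was 1 probe for 13 days against acute stress (4.69% of all probes), 2 for 8 days against acute stress (2.28%), 1 for recovery against 13 days (4.94%), 1 for 13 days against 8 days (1.54%), 0 for recovery against 8 days (1.5%) and 2 for recovery against acute stress (4.24%). The last were Mfsd2a, with a difference of -0.24, and Abcg2, with 0.16, each with a limma adjusted p of 1. The second one for 8 days against acute stress, beside Cldn5, was Mfsd2a at -0.26.

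The genes did not share a direction. The median of the 10 main probes was -0.003 after acute stress, 0.040 at 8 days, 0.026 at 13 days and 0.037 at recovery, against medians of 0.001, -0.001, -0.001 and -0.002 over all probes. Pool 1 at recovery stood apart, with a median of 0.18 and 7 of 10 genes above 0, while pools 2 and 3 had medians of -0.04 and -0.05 and 2 of 10 genes above 0. Its 5 values over 0.2 were those of Slc2a1, Ocln, Cdh5, Tjp1 and Abcb1a, which were 0.05 or less in pools 2 and 3. Over all probes, pool 1 had an SD of 0.151 to 0.174, against 0.0737 to 0.101 in pools 2 and 3. Without pool 1 the recovery means of these 5 genes were -0.05, -0.03, 0.00, -0.05 and -0.01.

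Other genes of the barrier gave 0 calls too, each gene read by its brightest probe. Among 19 further junction genes the medians were 0.00, 0.01, -0.01 and -0.01 in order of time, and 3 were below their controls at an unadjusted p under 0.05 after acute stress (4.94% of all probes passed that p in either direction) and 3 at 13 days (7.18%). At 8 days 2 were above and 0 below (2.39%). The first genes of that list were Esam and F11r, junction adhesion proteins, with means at 13 days of -0.06 and 0.07. Among 24 further barrier transporters and receptors the medians were -0.02, 0.02, -0.01 and -0.01. At an unadjusted p under 0.05, 1 was above and 3 were below their controls after acute stress (4.94% of all probes). At 8 days 1 was above and 1 below (2.39%), and at 13 days 0 were above and 3 below (7.18%). Slco1c1, a thyroid hormone carrier, had -0.04 after acute stress and -0.01 at 13 days. Slc7a5, the large neutral amino acid carrier, had 0.17, 0.12 and 0.20 in the acute pools and -0.09, -0.25 and -0.17 at 13 days, with means of 0.16 and -0.17 (limma adjusted p = 0.797 and 0.483). Slc7a5 was thus above its controls in all acute pools and below them in all pools at 13 days. At recovery it was below them in all pools too, at -0.11, -0.21 and -0.12, with a mean of -0.15 (limma adjusted p = 0.999). It was the 1 gene of its list above at that p after acute stress, where 3 others were below.

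Of 20 Wnt and transcription factor genes of barrier formation, none was called at any time point, and the medians lay between -0.03 and 0.03. Lef1 and Sox17, which act in endothelial Wnt and vessel programmes, had means of -0.02 and 0.06 at 13 days. Of 9 genes of caveolae, fenestrae and permeability, none was called either. Plvap, which forms the diaphragms of leaky vessels and is held low in barrier endothelium, had means of 0.05, 0.01, -0.03 and -0.18 in order of time, the last with a limma adjusted p of 0.999 and at -0.10 without pool 1. Cav1, the coat protein of caveolae, had -0.08, 0.11, -0.06 and -0.02, and its 8-day mean was 0.01 without pool 1.

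Markers of the cells around the barrier were set beside these values. Among 20 general endothelial genes the medians were -0.02, 0.05, 0.02 and -0.02, with 0 calls. At 13 days 3 of them were above and 1 below their controls at an unadjusted p under 0.05 (7.18% of all probes in either direction). Kdr and Flt1, receptors for VEGF, had means of -0.07 and -0.20 at 13 days, and that of Flt1 was -0.09 without pool 1. Neither passed that p (limma p of 0.211 and 0.0659), and the means of the 20 genes ran from -0.20 to 0.35. The summed intensity of these 20 genes at 13 days ranged from 43831 to 45998 in stress pools and from 43813 to 47399 in control pools. Among 14 mural cell markers the medians were -0.04, 0.06, 0.01 and 0.02, with 0 calls, and Pdgfrb and Rgs5, markers of pericytes, had 0.00 and 0.06 at 13 days. Among 10 astrocyte and endfoot markers the median at 13 days was -0.14, and 4 of 10 were below their controls at an unadjusted p under 0.05 (7.18% of all probes in either direction). At 8 days the median was -0.06 and 3 of 10 were below (2.39%). Aqp4, the water channel of endfeet, had -0.26, -0.41 and -0.20 at 13 days, with a mean of -0.29 (limma adjusted p = 0.433). Slc1a2, a glutamate carrier, had a mean of -0.31 (limma adjusted p = 0.437). After acute stress Aqp4 had -0.04, -0.32 and -0.38, with a mean of -0.25 (limma adjusted p = 0.803), and Slc1a2 had a mean of 0.07. The median of the 10 markers was then -0.01, and 1 of 10 was below its controls at an unadjusted p under 0.05 (4.94% of all probes in either direction). The summed astrocyte intensity at 13 days ranged from 38220 to 40836 in stress pools and from 43321 to 45136 in control pools, so the ranges did not overlap. At 8 days the sums ranged from 38138 to 41291 in stress pools and from 41871 to 43863 in control pools, without overlap. A sum weighs the brightest genes most. The median ratios of the 10 markers in pools 1 to 3 were 0.06, -0.07 and -0.20 at 8 days, so pool 1 was not lower by that measure. At 13 days these medians were -0.10, -0.07 and -0.20. How often sums of other genes do not overlap was not examined. The part of astrocytes in the Cldn5 and Mfsd2a values after acute stress and at 13 days was not tested.

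Red cell genes rose at 13 days. Of the 8 on the list, 6 were called higher, Hbb-b1, Hbb-b2, Beta-s, Hba-a1, Hba-a2 and Alas2, with mean log2 ratios of 1.00 to 1.61 and limma adjusted p of 0.00245 to 0.015. The size held under the 26 other settings, with means of 0.83 to 1.68 at 13 days, but the calls did not. None of the 6 was called when 13-day pool 1 or 13-day pool 2 was left out (lowest limma adjusted p of 0.0698 and 0.106), and 5 were called without 13-day pool 3. None was called either without pool 1 at every time point, at a normexp offset of 0, with median centring, in the authors' value table, with the Feature Extraction ratio or with a trended and robust eBayes step. The hemoglobin genes encode globin chains, and Alas2 the first enzyme of heme synthesis in red cells. Hbb-b1 had 1.46, 1.91 and 1.45, each farther from 0 than any barrier gene in any pool, and its mean was 3.05 times the control level (interval 2.30 to 4.04). The median of the 8 genes was -0.05, 0.59, 1.37 and 0.21 in order of time. Their summed intensity at 13 days ranged from 146262 to 216588 in stress pools, against 58943 to 75580 in control pools, so the ranges did not overlap. Their part in the barrier values was not tested. At recovery the red cell medians were 0.42, 0.55 and -0.31 in pools 1 to 3, while the barrier medians were 0.18, -0.04 and -0.05.

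**Figure D5:**
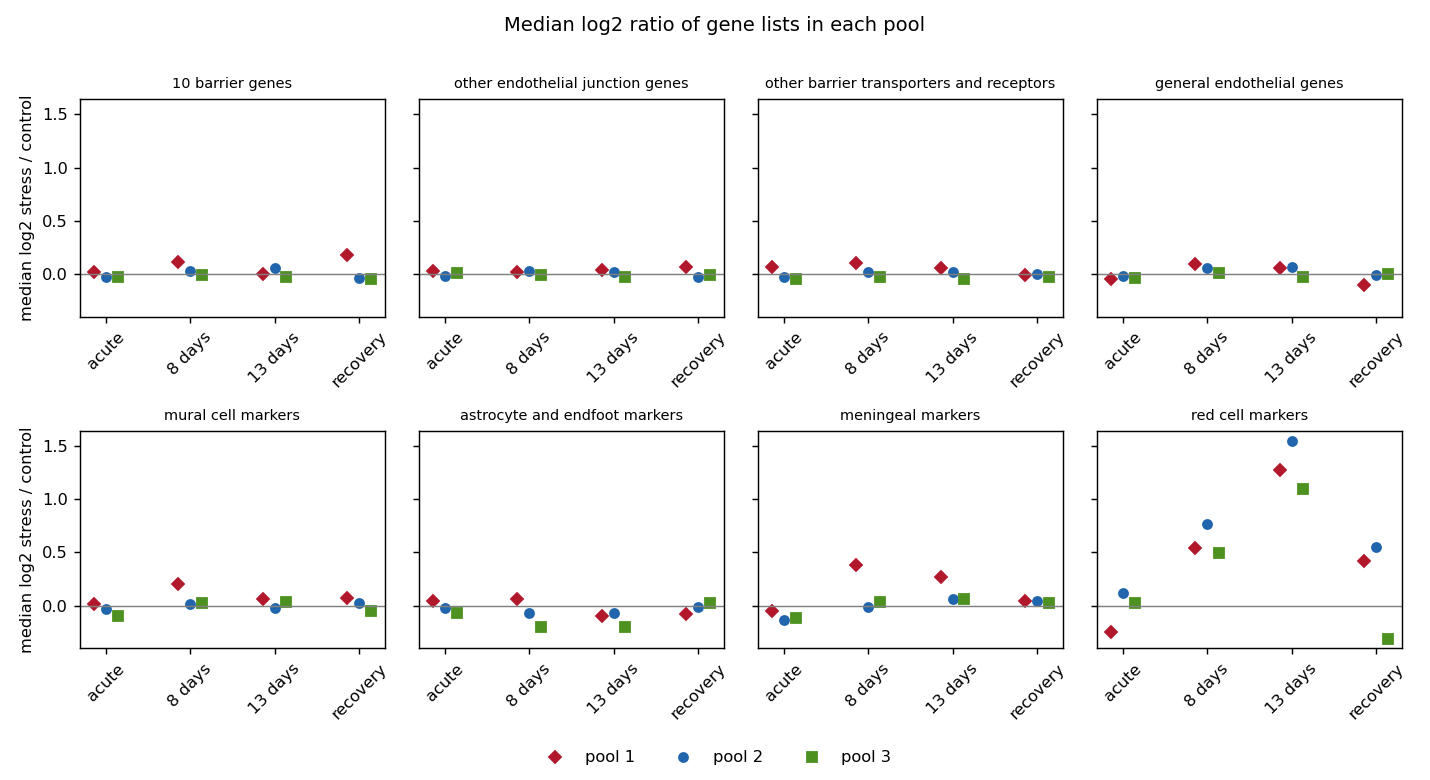
Median log2 stress/control ratio in each pool (symbols) for the 10 barrier genes and for 7 other gene lists at the 4 time points. Red cell markers reach medians of 1.10 to 1.55 at 13 days, while the barrier genes stay at -0.03 to 0.06.

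The other markers bear on the makeup of the slices. Of 10 meningeal markers only Mgp, a matrix protein, was called, higher at 13 days with 1.13, 0.67 and 0.64, a mean of 0.81 and a limma adjusted p of 0.0091. It was called under 20 of 26 other settings, with means of 0.65 to 0.92, and its adjusted p was 0.11 without 13-day pool 1 and 0.123 without 13-day pool 2. After acute stress the meningeal medians were -0.05, -0.14 and -0.12 in pools 1 to 3. At an unadjusted p under 0.05, 5 of 10 genes were then below their controls (4.94% of all probes in either direction). At 8 days the meningeal medians were 0.38, -0.01 and 0.03, and 2 of 10 genes were above at that p (2.39%). At 13 days they were 0.27, 0.06 and 0.06, and 3 of 10 were above (7.18%). The part of meninges in the barrier values was not tested. No gene was called at a single time point among 5 platelet, 9 microglia and macrophage, 9 choroid plexus, 5 oligodendrocyte, 6 neuron and 3 olfactory bulb markers. Their first listed genes had means at 13 days of 0.18 for Pf4 and 0.18 for Ppbp, -0.13 for Cx3cr1 and -0.06 for P2ry12, 0.02 for Ttr and 0.05 for Kl, 0.09 for Mbp, 0.13 for Snap25 and -0.14 for Syt1, and -0.11 for Eomes and 0.00 for Cdhr1. After acute stress the 5 oligodendrocyte markers had medians of 0.44, 0.16 and 0.16 in pools 1 to 3. Of these 5 markers, 3 were above their controls at an unadjusted p under 0.05 (4.94% of all probes in either direction). These acute shifts stand beside the acute values of Cldn5, Abcg2 and Mfsd2a, and their part in them was not tested. Mobp, a myelin gene, was the 1 gene called for 13 days against acute stress (difference -0.71, limma adjusted p = 0.0131), and under 15 of 26 other settings. The olfactory bulb median after acute stress was 0.20, 0.56 and -0.48 in pools 1 to 3, which differ in sign, so the pairs of acute pools differed in the balance of bulb marker RNA between stress and control. The neuron markers had a median of 0.02 after acute stress and 0.00 at 13 days.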

How the data were processed

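RNA of 12 pairs of pools was measured on 20 dual-colour Agilent arrays. The deposited scanner tables hold spot intensity values and 0 or 1 marks, read by Feature Extraction, and a log10 ratio of red over green, background-subtracted and dye-normalised. The authors deposited a normalised log2 ratio per probe as well, used as an alternative. In R 4.3.3 (limma 3.58.1, statmod 1.5.0), mean intensities went through normexp (offset 50), loess in which control and outlier spots had no weight, and Aquantile. Outlier spots (0.314% to 0.73% of an array) were left out, 0 spots were saturated, and 43020 spots gave 39429 probes. Swapped arrays were turned and averaged with their original. One limma fit held 4 time points, with SEs and intervals from its moderated variances. Normalised intensities include the offset.

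The members, lists and differences were chosen with earlier results of these data known. All 10 genes are named with every probe; of other lists, every called gene is named, or otherwise the first 2, and Mobp was named after its value was seen. The value of 1 listed marker is not reported here, and its list is given without it. All time points were present once on each of 5 slides, pool 1 on the first. Pools are separate mice, so p-values cover the spread between pools, which also holds differences between arrays, slides and dye orientations. Pool 1, with 1 array, counted as much as the other pools. Dye-swapped arrays of pool 1 were not used here.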

Additional observations from a re-analysis of the deposited data

Results flagged for a closer look

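In 6 of the 60 pairs of time points over the 10 main probes, all 3 pools lay on one side of 0 at one time point and on the other side at the second. Over all probes 2.59% of such pairs did. Only differences that meet this sign pattern are given, and none passed limma's test of the difference.

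Mfsd2a had a difference of -0.34 for 13 days against acute stress (adjusted p = 0.571 in limma). Cldn5 had this pattern in 3 pairs that share the 8-day pools, with differences of -0.30 for 13 days against 8 days, 0.25 for 8 days against acute stress and -0.15 for recovery against 8 days, each with a limma adjusted p of 1. Its acute value in pool 1 was -0.003 and its 8-day value in pool 2 was 0.013, so 2 of these signs rest on values near 0. Pecam1 had -0.16 for recovery against 13 days (limma adjusted p = 1), with -0.003 in pool 2 at recovery. Cdh5 had 0.09 for 13 days against acute stress (limma adjusted p = 1).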

How the results depend on the processing

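The number of barrier probes called was 0 for each of the 4 time points and for the 3 planned differences under all 26 other settings, of which 2, the dye term and the fit without pool 1, were chosen after seeing the data. Over these settings the time point means of the main probes ran from -0.303 to 0.349, so the size threshold alone kept them from a call. Over all probes, original arrays alone gave 67 calls after acute stress and 46 at recovery, against 1 and 0 in the fit reported. An adjusted p under 0.05 came up with array quality weights, for Cldn5 after acute stress (log2 ratio -0.21, adjusted p = 0.0164 in limma) and Mfsd2a for recovery against acute stress (-0.29, adjusted p = 0.0329), both under the size threshold. Median centring in place of loess turned Abcg2 after acute stress to 0.001 and the Cldn5 difference of 8 days against acute stress to -0.066, and moved the acute median of the 10 genes to 0.111. No other value with an unadjusted p under 0.05 changed sign. Of 1040 gene and time values under these settings 80 had the other sign, and the largest of them had a size of 0.141 in the fit reported. The replicate block by pool number called 0 barrier probes, with a lowest limma adjusted p of 0.153 among the main probes at the time points. Over all probes it called 2 after acute stress, 1 at 8 days, 10 at 13 days and 0 at recovery. Deviations of same-numbered pools of different time points had a median r of 0.28 and were over 0.1 in 12 of 18 pairs, against -0.13 and 8 of 36 for different numbers. They were taken from the mean of each time point, so r above 0 for same numbers pulls r for different numbers below 0. The values for different numbers are thus no independent reference. The numbers follow the slides, and blocking by slide called 0 barrier probes as well. Over all probes the 9 calls at 13 days were 0 without 13-day pool 1 or 2, at an offset of 0, with median centring, in the authors' table and with trended, robust eBayes, 2 without pool 1 throughout, 3 with the Feature Extraction ratio, 15 without 13-day pool 3 and 18 on original arrays. Among the barrier probes, leaving out 1 pool at a time gave 0 calls throughout. With 3 pools a time point and up to 5 arrays, smaller differences than the intervals cover could not be seen.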
